A study of Mus musculus with 8 samples.

Results

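The transcripts examined were 8 genes used as markers of the alveolar type 1 cell, Ager, Aqp5, Hopx, Pdpn, Rtkn2, Clic5, Emp2 and Akap5, taken by gene symbol from the 22756 genes counted in each of 8 RNA-Seq libraries. The libraries were made from distal lung cells of adult mice of a strain that was more than 90% C57BL/6, after lavage of the airspaces and magnetic depletion of CD45+ cells. They came from α7G mice, in which the nicotinic receptor gene Chrna7 carries an IRES-tauGFP reporter, and from α7E260A:G mice, which carry the same reporter and a point mutation that limits the coupling of the α7 receptor to calcium signaling. Mice of each genotype were either controls or had breathed side-stream smoke of cigarettes (CS) on 5 days per week for 4 months, and each of the 4 groups had 1 male and 1 female library. The number of mice behind a library was not given in the sources used here, so the spread between libraries may be partly technical. All values below are reads counted on the coding sequence (CDS), given relative to the library's total CDS count as reads per 1000000 (RPM) unless another scale is named.

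Alveolar type 1 cells are the thin, broad squamous cells that cover most of the gas exchange surface, and type 2 cells are the cuboidal surfactant-producing cells that lie between them and can give rise to new type 1 cells after injury. Type 1 cells are large and fragile and are recovered poorly when lung is dissociated. Ager encodes the receptor for advanced glycation end products (RAGE), a membrane receptor of the immunoglobulin family that is far more abundant in these cells than elsewhere in the body. Pdpn encodes podoplanin, a mucin-like surface glycoprotein, Aqp5 encodes an apical water channel, Emp2 a tetraspan membrane protein, Clic5 a chloride intracellular channel protein linked to the cortical cytoskeleton, Rtkn2 an intracellular signaling protein, Akap5 an anchoring protein for protein kinase A, and Hopx a small homeodomain cofactor that does not bind DNA itself. Several of these transcripts are not exclusive to type 1 cells: Aqp5 is also made in glands and airway, Pdpn in lymphatic endothelium and mesothelium, and Hopx in other epithelia and muscle.

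Promoter sequences were available for 7 of the 8 genes in a RefSeq table on the GRCm38.p6 build, with no entry for Rtkn2 and a pair of start sites for Hopx. The 250 bases before the start are printed for the 4 genes whose levels did not overlap between the genotypes, because these genes were low together in the same libraries. Capitals mark matches on either strand to CAAG, the core letters of NKX2-1 sites, to GGAATG, the letters of TEAD sites, and to GATAA, the letters of GATA sites.
Ager, chr17:34597600-34597849, + strand: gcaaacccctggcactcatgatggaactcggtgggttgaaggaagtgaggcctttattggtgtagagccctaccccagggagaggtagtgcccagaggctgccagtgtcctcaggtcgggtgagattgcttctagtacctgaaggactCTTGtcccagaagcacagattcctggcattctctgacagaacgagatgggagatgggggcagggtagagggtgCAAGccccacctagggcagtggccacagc
Aqp5, chr15:99590778-99591027, + strand: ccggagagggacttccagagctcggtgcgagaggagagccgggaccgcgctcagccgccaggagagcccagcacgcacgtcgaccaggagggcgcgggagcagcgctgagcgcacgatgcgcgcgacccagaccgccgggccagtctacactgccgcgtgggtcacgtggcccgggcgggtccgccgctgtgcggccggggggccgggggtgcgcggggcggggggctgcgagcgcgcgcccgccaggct
Pdpn, chr4:143299565-143299814, - strand: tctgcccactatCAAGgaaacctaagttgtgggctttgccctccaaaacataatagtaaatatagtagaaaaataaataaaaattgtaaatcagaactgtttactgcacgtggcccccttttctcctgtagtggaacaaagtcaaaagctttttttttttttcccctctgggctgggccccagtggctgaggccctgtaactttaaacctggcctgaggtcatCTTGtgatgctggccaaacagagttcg
Emp2, chr16:10313969-10314218, - strand: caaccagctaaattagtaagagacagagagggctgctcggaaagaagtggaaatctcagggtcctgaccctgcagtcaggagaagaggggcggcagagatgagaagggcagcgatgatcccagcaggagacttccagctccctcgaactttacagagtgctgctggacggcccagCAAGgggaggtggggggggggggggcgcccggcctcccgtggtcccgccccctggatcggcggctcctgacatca
The base composition of these windows ranged widely, from 43.2% G and C in Pdpn to 78.4% in Aqp5, with 57.6% in Ager and 62.8% in Emp2. CAAG occurred 2 times in the Ager and Pdpn windows, 1 time in that of Emp2 and 0 times in that of Aqp5. Over all 8 windows of the 7 genes, 7 held CAAG, which 86.6% of the 32851 promoters in the table also hold. No window held GGAATG or GATAA, which are found in 12.6% and 22.6% of all promoters. The letters are a description of these windows only.

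All 8 genes were detected in every library, with between 7 counts (Rtkn2) and 2670 counts (Ager). The filter on abundance, a mean of at least 200 counts over the libraries, was passed by Ager, Aqp5, Hopx, Pdpn and Emp2, the last member inside it being Pdpn with a mean of 204 counts. Clic5, with a mean of 135 counts, lay below it, as did Akap5 with 45.0 and Rtkn2 with 19.5. Compared per length of CDS, as RPM per kilobase of CDS (RPKM), Hopx had the highest level in α7G, at 314 ± 109 RPKM (SD, n = 4), and its range overlapped with that of Ager at 187 ± 25.4. Emp2 followed at 122 ± 17.5 RPKM and overlapped with Aqp5 at 89.9 ± 26.0. Pdpn at 57.7 ± 7.35 RPKM and Clic5 at 21.4 ± 6.91 each stood clear of the genes next to them in the order. Akap5 and Rtkn2, at 2.39 ± 0.932 and 1.60 ± 0.913 RPKM, overlapped and were the lowest. The order was the same in α7E260A:G, where Hopx stood clear of Ager (236 ± 75.3 against 80.0 ± 38.4 RPKM), Ager, Emp2, Aqp5 and Pdpn each overlapped with the next, Clic5 stood clear of Akap5, and Rtkn2 was the lowest at 0.769 ± 0.280 RPKM.

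On the mm9 build, Ager (chromosome 17, 34734807 to 34737879) has 1401 bases of CDS in 11 blocks. Aqp5 (chromosome 15, 99421280 to 99425260) has 795 bases of CDS, Pdpn (chromosome 4, 142857334 to 142889467) and Emp2 (chromosome 16, 10281842 to 10314061) each have 516, and Hopx (chromosome 5, 77515468 to 77544186) has 219, the shortest of the 8. Clic5 (chromosome 17, 44325521 to 44417117) has 790 bases of CDS, Rtkn2 (chromosome 10, 67442318 to 67522488) has 1822, and Akap5 (chromosome 12, 77425878 to 77435140) has 2256 in a single exon. Other annotated genes overlap Hopx, Rtkn2 and Akap5 on the opposite strand, but none shares a base with their CDS in the annotation.

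The total CDS counts ranged from 8020726 to 10944100, so that a floor of 3 counts is 0.274 to 0.374 RPM, and the Y-linked Ddx3y was counted in the 4 male libraries and was at 0 in the 4 female ones. The mutated gene gave no check of the genotype labels, because Chrna7 was at 0 counts in 7 libraries. The dependence of counts on CDS length differed between libraries, with slopes of log2 count on log2 CDS length, relative to the mean of the libraries, from -0.243 in the male α7G CS library to 0.409 in the male α7E260A:G control library, while the female library of that last group was at -0.238. The sources give the cells as more than 95% EpCAM+, yet transcripts of other cells were plentiful: 8 alveolar macrophage markers summed to between 8506 and 36680 RPM, and Ptprc, which encodes CD45, lay between 771 and 1935 RPM in all libraries.

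The first comparison asked how the genotypes differed over both exposures. Ager, Aqp5, Pdpn and Emp2 were lower in each of the 4 α7E260A:G libraries than in any of the 4 α7G libraries, by 1.71-fold (Emp2) to 2.72-fold (Aqp5) between the means. Thus the receptor, the water channel and both small membrane proteins of the set went the same way, whereas the cofactor Hopx, Rtkn2, Clic5 and Akap5 overlapped between the genotypes. Among the 7197 genes past the filter, 370 (5.14%) were lower in α7E260A:G without overlap and 215 (2.99%) were higher without overlap. In bulk samples such as these, fewer cells of a type and less RNA per cell cannot be told apart.

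**Figure D1:**
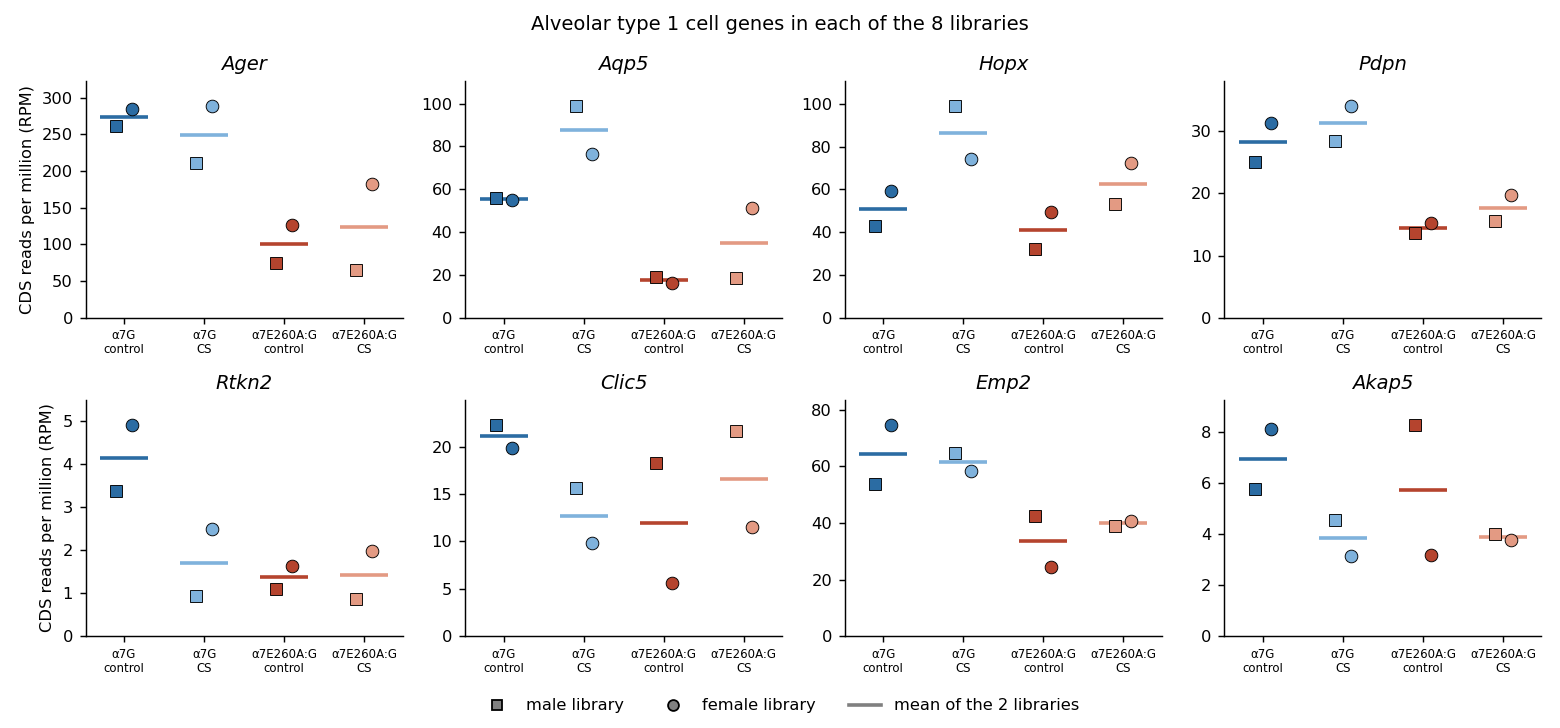
RPM of each of the 8 genes (vertical axes, linear, from 0) in the 4 groups, with squares for male libraries, circles for female libraries and lines for the mean of the 2 libraries. For Ager, Aqp5, Pdpn and Emp2 all 4 red points of α7E260A:G sit below all 4 blue points of α7G; for Ager the highest α7E260A:G library is at 182 RPM and the lowest α7G library at 211 RPM.

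Ager, the most abundant of the 8 transcripts by reads, was at 261 and 285 RPM in the male and female α7G controls and at 211 and 288 RPM in the male and female α7G CS libraries. In α7E260A:G it was at 74.2 and 126 RPM in the controls and at 65.6 and 182 RPM after CS. The genotypes did not overlap, and in every group of both genotypes the male library was the lower one. The means were 112 ± 53.8 RPM in α7E260A:G and 261 ± 35.6 RPM in α7G (SD, n = 4 each), with a two-sided exact permutation p of 0.0286, the smallest that 4 against 4 libraries allow.

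Pdpn was the steadiest of the 4 in RPM. It measured 25.1 and 31.4 RPM in the α7G controls and 28.5 and 34.0 RPM after CS, against 13.6 and 15.3 RPM in the α7E260A:G controls and 15.5 and 19.7 RPM after CS. The ratio of α7E260A:G to α7G, taken between libraries of the same sex and exposure, lay within 0.486 to 0.580 in all 4 pairs. Podoplanin transcripts thus averaged 16.0 ± 2.58 RPM in α7E260A:G and 29.7 ± 3.79 RPM in α7G (exact permutation p = 0.0286, n = 4 each). With the CDS length trend of each library removed, the pairs were less even, still without overlap. Pdpn was then at 31.0 and 32.9 in the α7G controls and 22.4 and 28.8 after CS. In α7E260A:G it was at 19.4 and 12.2 in the controls and 17.9 and 17.3 after CS.

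Emp2, the tetraspan protein gene, was at 53.8 and 74.6 RPM in the α7G controls and at 64.6 and 58.2 RPM after CS. Its α7E260A:G values were 42.3 and 24.6 RPM in the controls and 38.9 and 40.8 RPM after CS, all below the lowest α7G library. The means were 36.6 ± 8.16 and 62.8 ± 9.05 RPM (exact permutation p = 0.0286, n = 4 each). The pair ratios were uneven in the controls, 0.786 between males and 0.329 between females. With the CDS length trend of each library removed, Emp2 overlapped, with the male α7E260A:G control at 60.2 and the female α7G CS library at 49.3.

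Aqp5 had the greatest fold of the 8 genes by genotype. The water channel transcript was at 55.8 and 55.1 RPM in the α7G controls, 98.7 and 76.4 RPM in the α7G CS libraries, 19.0 and 16.4 RPM in the α7E260A:G controls, and 18.6 and 51.1 RPM in the male and female α7E260A:G CS libraries. The other 3 α7E260A:G libraries lay close together and the female CS library of α7E260A:G stood above them, just under the α7G range. The means were 26.3 ± 16.6 and 71.5 ± 20.6 RPM (exact permutation p = 0.0286, n = 4 each). Scaled by TMM, the scaling used in the edgeR fit, Aqp5 overlapped between the genotypes, with the female α7E260A:G CS library at 56.2 and the male α7G control at 51.2.

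The remaining 4 genes overlapped between the genotypes. Hopx was at 42.8, 59.1, 98.8 and 74.2 RPM in α7G (control male, control female, CS male, CS female) and at 32.2, 49.4, 53.1 and 72.3 RPM in α7E260A:G in that order. It was lower in α7E260A:G in 4 of 4 pairs, with ratios of 0.538 to 0.975, but the means of 51.8 ± 16.5 and 68.7 ± 23.8 RPM differed by less than the spread (exact permutation p = 0.314, n = 4 each). Hopx thus shared the direction of the 4 membrane protein genes but not the separation of the groups.

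Rtkn2 was also lower in 4 of 4 pairs, on 7 to 46 counts per library. It was at 3.37, 4.91, 0.931 and 2.48 RPM in α7G and at 1.10, 1.64, 0.873 and 1.99 RPM in α7E260A:G (exact permutation p = 0.143, n = 4 each). The pair ratios were 0.326 and 0.335 in the controls and 0.937 and 0.802 after CS, so the gap between the genotypes was wider in the controls. Clic5 and Akap5 were each lower in 2 pairs and higher in the other 2. Clic5 was at 22.3, 19.9, 15.6 and 9.81 RPM in α7G and at 18.3, 5.57, 21.7 and 11.5 RPM in α7E260A:G (exact permutation p = 0.600, n = 4 each), with the male library the higher one in every group of both genotypes. Akap5 was at 5.77, 8.11, 4.54 and 3.16 RPM in α7G and at 8.29, 3.20, 3.99 and 3.76 RPM in α7E260A:G (exact permutation p = 0.714, n = 4 each). These exact tests were run for 8 genes and 2 contrasts, and their p-values are not adjusted.

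**Figure D2:**
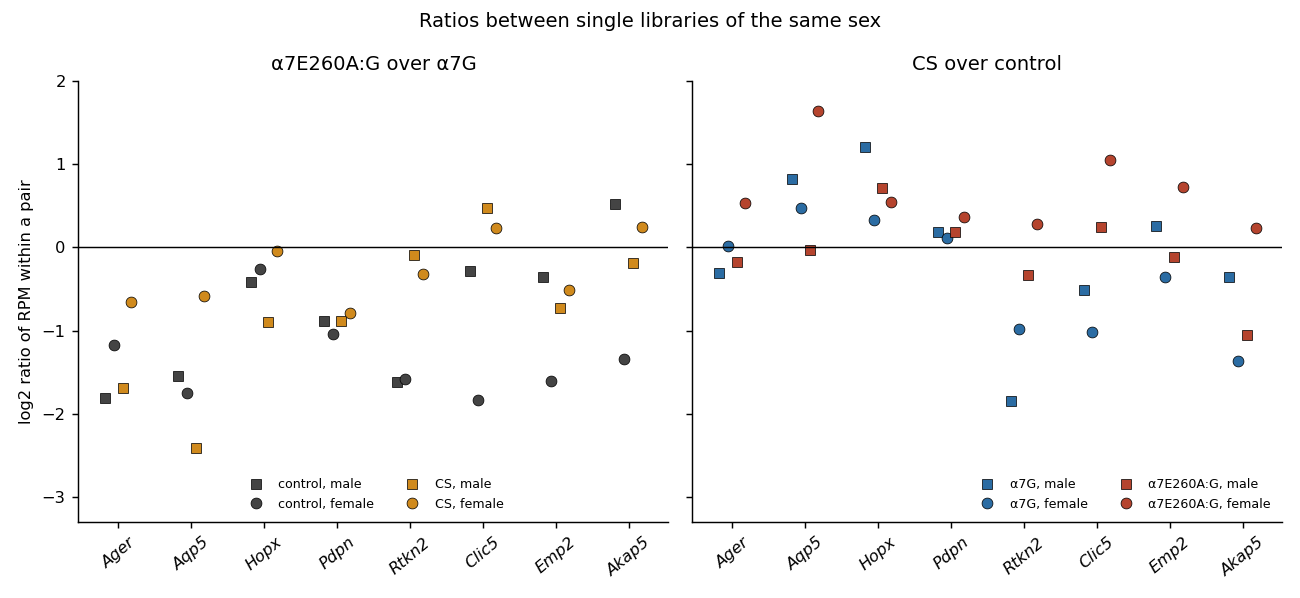
The log2 ratio of RPM between single libraries of the same sex (vertical axis), for α7E260A:G over α7G within each exposure (left) and for CS over control within each genotype (right), with squares for males and circles for females. On the left all 4 points lie below 0 for 6 of the 8 genes, and those of Pdpn lie closest together; on the right the points straddle 0 for 6 of the 8 genes and lie above 0 in 4 of 4 pairs for Hopx and Pdpn.

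In the fit across all genes, the quasi-likelihood test of edgeR, with p-values adjusted by Benjamini-Hochberg over 7197 genes, called 6 genes by genotype (0.0834%), and 0 of the 5 alveolar type 1 genes tested were among them. The log2 fold-changes of α7E260A:G relative to α7G were -1.40 for Aqp5 (SE 0.35, adjusted p = 0.155), -1.11 for Ager (SE 0.41, adjusted p = 0.325), -0.82 for Pdpn (SE 0.23, adjusted p = 0.186), -0.74 for Emp2 (SE 0.19, adjusted p = 0.171) and -0.30 for Hopx (SE 0.29, adjusted p = 0.812). All 5 were below 0, with a median of -0.82, and 4 of them, all but Hopx, had an unadjusted p under 0.05. Over all genes tested the median was 0.04, 43.9% were below 0 and 11.9% had an unadjusted p under 0.05. For the genes below the filter, the fit of all 17542 genes gave log2 fold-changes of -0.80 for Rtkn2 (SE 0.55), -0.18 for Clic5 (SE 0.33) and -0.08 for Akap5 (SE 0.36), none of them called.

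The call depended on the method more than the size of the difference did. DESeq2 called Aqp5 (adjusted p = 0.00493), Emp2 (adjusted p = 0.0232) and Pdpn (adjusted p = 0.0281) lower in α7E260A:G, where 161 of all genes (2.24%) were called lower. With an offset in edgeR for the CDS length trend of each library, Aqp5 (adjusted p = 0.0194) and Pdpn (adjusted p = 0.0342) were called, where 188 of all genes (2.61%) were called lower. With sex as a replicate block as well as this offset, Ager was called too (log2 fold-change -1.25, SE 0.22, adjusted p = 0.0114), beside Aqp5 and Pdpn, where 292 of all genes (4.06%) were called lower. Over all the fits to the 8 libraries, the estimate for Aqp5 stayed between -1.49 and -1.38 and that for Pdpn between -0.90 and -0.79. Leaving out 1 library moved them more, from -1.94 to -1.09 for Aqp5 and from -0.98 to -0.69 for Pdpn. The estimate for Ager then ran from -1.65 to -0.80 and that for Emp2 from -0.88 to -0.60.

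**Figure D3:**
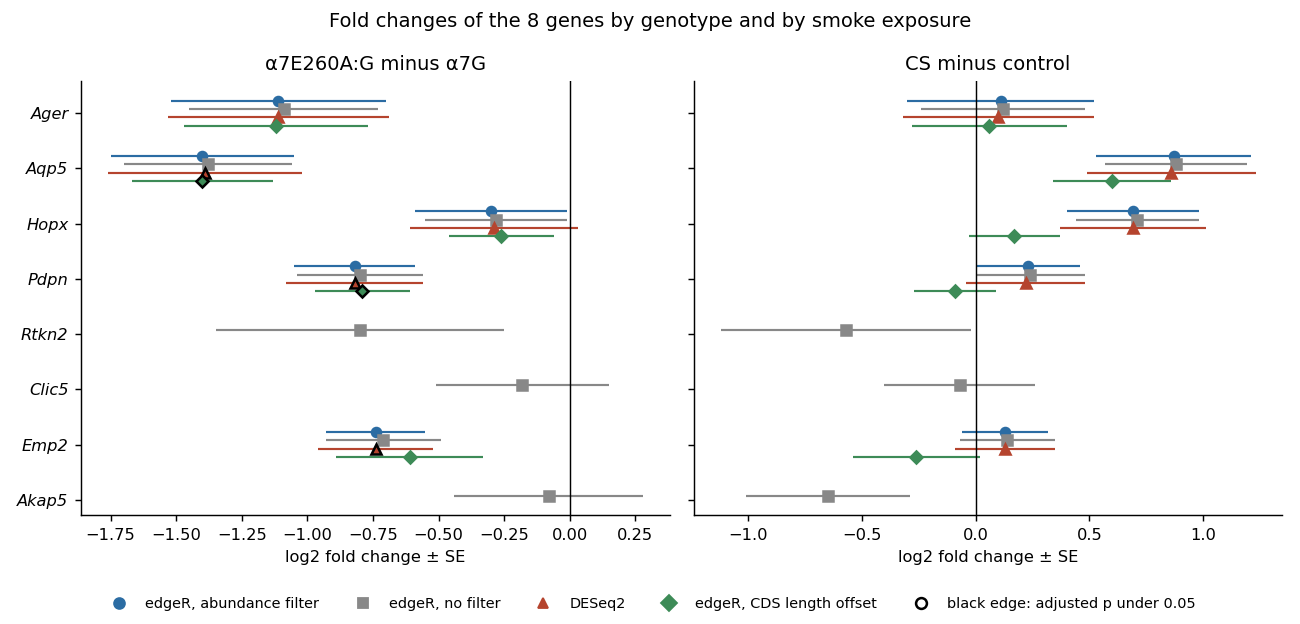
The log2 fold-change with its standard error (horizontal axes) of the 8 genes for α7E260A:G against α7G (left) and CS against control (right), from edgeR with and without the filter on abundance, DESeq2 and edgeR with an offset for CDS length; black edges mark an adjusted p under 0.05. On the left every estimate is below 0 and black edges are seen for Aqp5, Pdpn and Emp2 only; on the right there is no black edge, and the estimate for Hopx moves from 0.69 to 0.17 with the offset.

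The sum of the 8 genes was lower in each α7E260A:G library than in any α7G library. It was 469.9, 538, 523 and 546 RPM in α7G and 209, 242, 218 and 383 RPM in α7E260A:G (control male, control female, CS male, CS female), and Ager made up 30.1 to 55.5% of it. The α7E260A:G mean was 0.507 of the α7G mean. Of 27 further genes associated with type 1 cells, 13 passed the filter, of which 2 were lower without overlap and 11 overlapped, with 0 called by edgeR and a median log2 fold-change of -0.42. The lowest were Cldn18, a tight junction protein of the alveolus, at -1.57 (SE 0.26, adjusted p = 0.104) and Gprc5a at -1.25 (SE 0.30, adjusted p = 0.141), and the highest were Limch1 at 0.38 (SE 0.46, adjusted p = 0.872) and Agrn at 0.05 (SE 0.39, adjusted p = 0.992). With the genes below the filter included, 7 of the 27 were lower in α7E260A:G without overlap and 0 were higher. The share of all genes on that basis was not computed. The 27 genes summed to 1121 to 1379 RPM in α7G and 520.5 to 1026 RPM in α7E260A:G, a ratio of means of 0.674. Several of the 27, such as Cav1, Cldn18 and Vegfa, are also made by endothelium or by type 2 cells.

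Markers of other cells moved with genotype as well, and their part in the differences above was not tested. The 10 type 2 cell markers, led by the surfactant protein gene Sftpc, summed to 20198 to 30802 RPM in α7G and 4821 to 14899 RPM in α7E260A:G, a ratio of means of 0.387, and 7 of the 10 were lower without overlap. The 8 alveolar macrophage markers went the other way, from 8506 to 15369 RPM in α7G to 21786 to 36680 RPM in α7E260A:G, and 6 of the 8, Marco and Fabp4 among them, were higher without overlap. The general epithelial markers Epcam, Cdh1, Krt8, Krt18 and Krt19 summed to 1213 to 1886 RPM in α7G and 1002 to 1521 RPM in α7E260A:G, which overlapped, although Epcam alone was lower in every α7E260A:G library (78.5 to 92.3 against 131 to 212 RPM).

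Markers of other cells that can make Pdpn or Aqp5 were also summed. The 5 lymphatic endothelial markers lay between 59.8 and 83.6 RPM in α7G and between 39.2 and 193 RPM in α7E260A:G. Among them Ccl21a had at most 3 counts in every library. Lyve1, Flt4 and Reln passed the filter, with means of 32.2, 21.9 and 15.4 RPM in α7G and 25.6, 40.3 and 45.1 RPM in α7E260A:G. The 5 mesothelial markers lay between 65.1 and 126 RPM in α7G and between 43.9 and 105 RPM in α7E260A:G, a ratio of means of 0.677. Both sums overlapped between the genotypes, and Msln, the only mesothelial marker past the filter, was at a log2 fold-change of -0.84 (SE 0.30, adjusted p = 0.305), beside -0.82 for Pdpn. The 6 club cell markers, which report the airway epithelium where Aqp5 can also be made, were at 50463 to 80516 RPM in α7G and 21536 to 53005 RPM in α7E260A:G, a ratio of means of 0.587 with overlap. All 6 club cell genes had a log2 fold-change below 0, with a median of -0.69, and Cyp2f2 was lower without overlap, at 2003 to 2607 against 3316 to 4613 RPM. The 8 endothelial markers (689 to 755 and 316 to 887 RPM), the 6 fibroblast markers (1151 to 1722 and 729 to 2890 RPM), the 6 ciliated cell markers (555 to 981 and 402 to 760 RPM) and the 6 cardiac muscle markers (13.0 to 20.7 and 9.40 to 17.6 RPM) overlapped between α7G and α7E260A:G. The 6 lymphocyte markers were lower in α7E260A:G, at 689 to 1077 against 1192 to 1805 RPM.

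**Figure D4:**
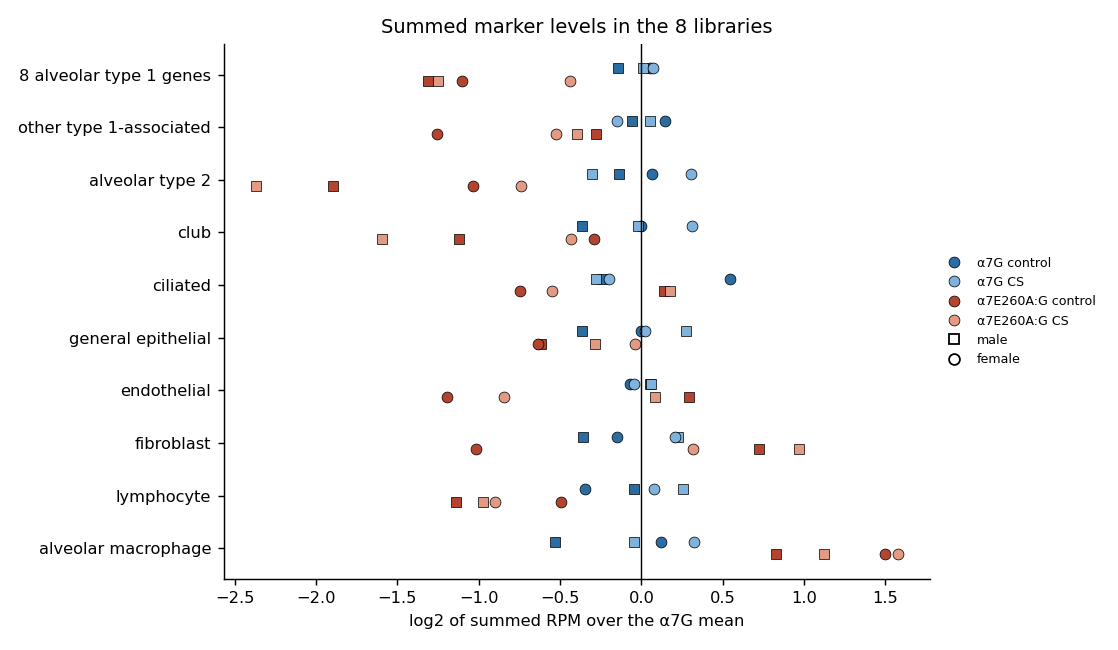
Summed RPM of marker lists for 10 cell classes in the 8 libraries, as the log2 ratio to the mean of the 4 α7G libraries (horizontal axis), with blue points for α7G, red points for α7E260A:G, squares for males and circles for females. The alveolar type 1 and type 2 sums of all 4 α7E260A:G libraries lie to the left of all α7G libraries and the alveolar macrophage sums lie to the right.

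Because the share of each cell class in a library bears on RPM, the 8 genes were also taken relative to markers of epithelium and of type 2 cells. Per 100 RPM of the 5 general epithelial markers, the sum of the 8 genes was 27.7 to 38.7 in α7G and 17.0 to 25.2 in α7E260A:G, still without overlap. This scale leans on Krt19, which averaged 763 of 1560 RPM in α7G and 722 of 1205 RPM in α7E260A:G. Its log2 fold-change by genotype was 0.01, against -0.96 for Epcam, -0.79 for Krt18, -0.71 for Krt8 and -0.30 for Cdh1. The ratio to each marker alone was not tested. Of the single genes only Aqp5 kept the groups apart on this scale, against 4 genes in RPM. It was at 3.54 to 5.23 in α7G and 1.45 to 3.36 in α7E260A:G (exact permutation p = 0.0286, n = 4 each). The scale was chosen after seeing the data, and the share of all genes kept apart on it was not computed. Ager overlapped here, at 17.3 ± 4.35 in α7G and 9.25 ± 3.63 in α7E260A:G (SD, n = 4 each).

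Relative to type 2 cell markers the mean of the sum was higher in α7E260A:G, the opposite direction, but not in the female controls (20.6 in α7G and 19.9 in α7E260A:G). Per 1000 RPM of these markers, the sum of the 8 genes was 17.7 to 25.9 in α7G and 19.9 to 45.3 in α7E260A:G, and 0 of the 8 genes kept the groups apart. Ager held a narrow ratio to type 2 markers over all 8 libraries, with 11.5, 10.9, 10.5 and 9.36 in α7G and 11.1, 10.4, 13.6 and 12.2 in α7E260A:G. Hopx, in contrast, averaged 2.87 ± 1.37 in α7G and 6.18 ± 3.24 in α7E260A:G on this scale (SD, n = 4 each). The ratio of α7E260A:G to α7G means was thus lower for the summed type 2 markers (0.387) than for the 8 genes (0.507). This scale leans on Sftpc, which averaged 15200 of 24917 RPM in α7G and 5558 of 9643 RPM in α7E260A:G. Its log2 fold-change by genotype was -1.31. Those of the 9 type 2 markers past the filter ran from -1.45 for Slc34a2 to -0.27 for Abca3, with a median of -1.2. The ratio to each of these markers alone was not tested.

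**Figure D5:**
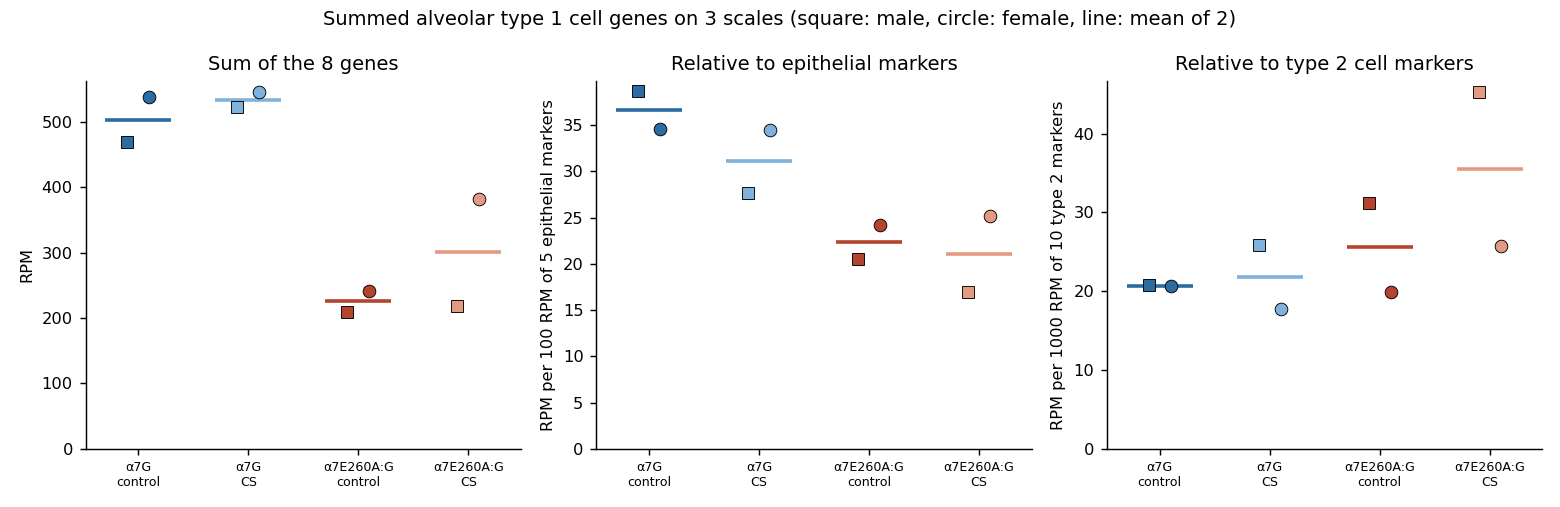
The sum of the 8 genes in each library (linear axes from 0) in RPM (left), per 100 RPM of 5 general epithelial markers (middle) and per 1000 RPM of 10 type 2 cell markers (right), with squares for males, circles for females and lines for the mean of the 2 libraries. The genotypes are apart in the left and middle panels and overlap on the right, where the male α7E260A:G CS library is the highest at 45.3.

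The second comparison asked how CS differed from control. None of the 8 genes was called, and CS and control libraries overlapped for all 8 when the genotypes were pooled; without overlap, 119 of the 7197 genes (1.65%) were higher and 30 (0.417%) were lower after CS. Hopx came closest, at 74.6 ± 18.7 RPM after CS against 45.9 ± 11.3 RPM in controls (exact permutation p = 0.0571, n = 4 each). It was higher after CS in 4 of 4 pairs, by ratios of 2.31 and 1.26 in α7G and 1.65 and 1.46 in α7E260A:G. Pdpn was also higher in 4 of 4 pairs, by much less, with ratios of 1.08 to 1.29.

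Aqp5 was higher after CS in 3 of 4 pairs. In α7G its level was 87.5 ± 15.8 RPM after CS and 55.4 ± 0.514 RPM in controls (SD, n = 2 each), and in α7E260A:G the female libraries were at 16.4 RPM in control and 51.1 RPM after CS while the male libraries were at 19.0 and 18.6 RPM. Ager showed no common direction, with ratios of 0.809 and 1.01 in α7G and 0.884 and 1.44 in α7E260A:G. Emp2 was likewise higher in 2 pairs and lower in 2.

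Over both genotypes, edgeR called 0 of 7197 genes with CS (0%), 7.59% had an unadjusted p under 0.05, and DESeq2 called 39 genes and none of the 5 tested here. The log2 fold-change was 0.87 for Aqp5 (SE 0.34, 95% interval 0.19 to 1.54, adjusted p = 0.630) and 0.69 for Hopx (SE 0.29, 95% interval 0.13 to 1.26, adjusted p = 0.630), the only members with an unadjusted p under 0.05. For Ager it was 0.11 with a 95% interval of -0.69 to 0.90. Pdpn was at 0.23 (-0.22 to 0.67) and Emp2 at 0.13 (-0.25 to 0.51). The median of the 5 genes was 0.23, and that of all genes was -0.00.

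The offset for CDS length moved Hopx, whose CDS is the shortest of the 8, the most of the 5 genes with CS. With the length offset the log2 fold-change of Hopx with CS was 0.17 (SE 0.20, adjusted p = 0.825), while that of Aqp5 was 0.60 (SE 0.26, adjusted p = 0.549). Pdpn and Emp2, which also have short CDS, were at -0.09 and -0.26 with the offset. By genotype the offset left Hopx at -0.26, near the -0.30 found without it.

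The 3 less abundant genes tended to be lower after CS in α7G. Rtkn2 had 28 and 46 counts in the α7G controls against 8 and 22 after CS, Clic5 had 185 and 186 against 134 and 87, and Akap5 had 48 and 76 against 39 and 28. In the fit of all genes their log2 fold-changes with CS in α7G were -1.14 (SE 0.76, adjusted p = 0.720), -0.60 (SE 0.46, adjusted p = 0.742) and -0.73 (SE 0.50, adjusted p = 0.731). In α7E260A:G, Rtkn2 was at 1.37 ± 0.388 RPM in controls and 1.43 ± 0.791 RPM after CS, and Akap5 at 5.74 ± 3.60 and 3.88 ± 0.162 RPM (SD, n = 2 each). For each of the 3 genes both α7G CS libraries were below both α7G controls in RPM, a separation of 2 against 2 that did not pass the test. The share of all genes separated in this way was not computed. With the CDS length trend removed, Akap5 overlapped in α7G, at 4.78 in the male control and 4.95 in the male CS library. In α7E260A:G, Rtkn2 and Akap5 overlapped between CS and control.

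Taken within each genotype, 2 libraries against 2, edgeR called 0 of 7197 genes with CS in α7G (0%) and 0 in α7E260A:G (0%), where 6.75% and 1.67% had an unadjusted p under 0.05 and DESeq2 called 27 and 11. In α7G the log2 fold-changes were 0.88 for Hopx (SE 0.41, adjusted p = 0.588), 0.78 for Aqp5 (SE 0.48, adjusted p = 0.588), 0.26 for Pdpn, 0.05 for Emp2 and -0.01 for Ager. With the CDS length offset they were -0.13 for Hopx, 0.42 for Aqp5, -0.30 for Pdpn, -0.51 for Emp2 and -0.05 for Ager, so that Hopx, Pdpn and Emp2 changed sign. In α7E260A:G they were 0.95 for Aqp5 (SE 0.49, adjusted p = 1.0), 0.51 for Hopx (SE 0.41, adjusted p = 1.0), 0.22 for Ager, 0.21 for Emp2 and 0.19 for Pdpn. The test of the difference between these responses called 0 genes (0%), with 1.45% at an unadjusted p under 0.05 and 3 called by DESeq2. For the 5 genes this difference ranged from -0.37 for Hopx (SE 0.57) to 0.22 for Ager (SE 0.81), less than 1 standard error in each case. It depended on single libraries: for Aqp5 it was 0.17, but 0.78 (SE 0.38) without the male and -0.91 (SE 0.39) without the female α7E260A:G CS library, and for Ager it ran from -0.87 to 0.91. For Hopx it was 0.66 (SE 0.32) with sex as a replicate block and the CDS length offset. None of these passed the test. Clic5 had the opposite signs in the genotypes, lower after CS in both α7G pairs (ratios 0.701 and 0.494) and higher in both α7E260A:G pairs (1.19 and 2.06), but the difference of 1.07 (SE 0.66, adjusted p = 1.0) did not pass the test.

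Other genes of the pathways in which the 8 take part were described from fixed lists, none of which had a gene called by edgeR in the genotype or CS comparisons. Of the ligands of RAGE, 7 of 9 passed the filter, all overlapped between the genotypes and their median log2 fold-change was 0.21. Its lowest were the small calcium-binding proteins S100a6 at -0.15 and S100a11 at -0.03, and its highest were S100a1 at 0.61 and App at 0.38. Of the genes for signaling and shedding of RAGE, 7 of 8 passed, with a median of 0.02, from Nfkbia, an inhibitor of NF-κB that was lower in every α7E260A:G library (124 to 159 against 174 to 217 RPM), at -0.35 and the protease gene Mmp9 at -0.32 up to Adam10, a sheddase, at 0.11 and Diap1 at 0.59. Ligand and signaling transcripts thus lay on both sides of 0 while Ager itself was at -1.11.

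Of the partners of podoplanin, 7 of 8 passed, with a median of 0.21. The cytoskeletal linkers Ezr and Rdx were at -0.33 and -0.08, and the galectin gene Lgals8 and the hyaluronan receptor gene Cd44 were at 0.80 (SE 0.14, adjusted p = 0.104) and 0.65 (SE 0.16, adjusted p = 0.135), with Lgals8 higher in every α7E260A:G library. Aqp1, the water channel of endothelium and red cells, was the only other aquaporin to pass and was at -0.27 (SE 0.26), with 151 RPM in α7G and 124 RPM in α7E260A:G. All 4 CLIC relatives of Clic5 passed, with a median of -0.14, from Clic3 at -0.77 and Clic6 at -0.32 to Clic4 at 0.05 and Clic1 at 0.06. The relatives of Emp2 were at -0.24 for Pmp22, 0.24 for Emp3 and 0.36 for Emp1. Neither Aqp1 nor any of the EMP relatives was lower without overlap. Below the filter, the aquaporin gene Aqp3 was lower without overlap, at 3.41 to 9.40 RPM in α7E260A:G against 10.7 to 13.0 RPM in α7G.

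Among 5 of 9 genes of the AKAP5 complex that passed, the median was -0.02, from the calcineurin subunit Ppp3ca at -0.22 to the kinase subunits Prkaca at -0.01 and Prkar2b at 0.64 (SE 0.15, adjusted p = 0.138). Of 14 regulators of type 1 cell fate, which include the coactivators YAP and TAZ and their TEAD partners, 5 passed and all 5 overlapped between the genotypes. Their median was 0.09, with Cyr61 at -0.01, Ctgf at 0.09, Wwtr1, which encodes TAZ, at 0.24 and Lats1 at 0.45. Yap1 and the Tead genes lay below the filter. Of all 14, 2 were lower in α7E260A:G without overlap and 0 were higher. Tead3 was at 2.88 to 5.97 against 7.46 to 11.1 RPM in α7G, and Gata6 at 4.2 to 6.46 against 7.67 to 10.5 RPM. The share of all genes with those below the filter included was not computed.

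As a description over the 8 libraries, which share genotype, sex and composition, Ager and Pdpn had the closest profiles of any pair of the 8 genes (Pearson r of log2 RPM 0.913), followed by Aqp5 and Pdpn (0.909). Emp2 was most like the mean of the other genes (0.920) and Akap5 least (0.163). Clic5 and Akap5 were more like each other (0.686) than either was like Ager (-0.0812 and -0.0359). The 8 genes outside the set whose profile was nearest to the mean profile of the set were Atp1b1, a sodium pump subunit (0.983), the cytokine gene Il33 (0.964), Epn3 (0.964), the mucin gene Muc1 (0.960), AA986860 (0.959), Xrcc6 (0.959), Ctps (0.951) and Maob (0.947). Atp1b1 averaged 249 RPM in α7G and 133 RPM in α7E260A:G, and Muc1 281 and 113 RPM.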

How the data were processed

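The authors deposited raw read counts per gene for 8 libraries, counted on coding sequence with htseq-count and GENCODE M1 after alignment with STAR to mm9 (NCBIM37). Libraries were made with a TruSeq stranded mRNA kit; the versions of STAR and HTSeq and the strand setting of the counting are not given in the sources used here. The authors' methods filter on a mean count of at least 200 and leave out immunoglobulin, histocompatibility, Gm and ribosome subunit genes by name, which kept 7197 of 22756 genes here. Samples were grouped by the genotype, exposure and sex in the labels; the titles of the α7G female libraries omit the G, and their genotype label gives it.

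RPM were computed from total counts and RPKM with the CDS length in the annotation. Counts were fitted with 1 coefficient for each of 4 groups, sex not being modelled (edgeR 4.0.16, limma 3.58.1, R 4.3.3; glmQLFit and glmQLFTest, TMM, Benjamini-Hochberg at 0.05). SE were derived from the fold-change and the F statistic, and intervals are approximate. Exact permutation tests were two-sided, over 70 arrangements of RPM. Alternatives were DESeq2 1.42.0, library size scaling, filterByExpr (14140 genes), no filter (17542 genes with a count), an offset for CDS length, sex as a replicate block, both together, and leaving out each library. The edgeR and DESeq2 fits by genotype were checked on simulated counts. Where CDS length trends were simulated, only the edgeR fit with the offset had to pass. Other computations used Python 3.11.15, numpy 2.4.6 and pandas 2.3.3, and figures matplotlib 3.10.9.

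The 8 genes and the gene lists were chosen with earlier results of these data known. Markers of other cell types were described by their summed level. Of each other list, the 2 genes with the highest and the 2 with the lowest fold-change by genotype past the filter were named, with any gene called; 1 gene that this rule takes and the list of genes beside Rtkn2 are not reported here; further genes of the marker lists were named as examples after their values were seen. Of genes with the same symbol, the entry with the longer CDS was used, and 1 listed gene was not matched. Genes most like the set were ranked by Pearson r of log2(RPM + 0.5) with the mean standardised profile of the 8 genes. Promoter sequences are from RefSeq on GRCm38.p6, and gene positions are from the mm9 annotation.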

Additional observations from a re-analysis of the deposited data

Results flagged for a closer look

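Aqp5 in the female α7E260A:G CS library, at 51.1 RPM, lay far from the other 3 libraries of that genotype, which were between 16.4 and 19.0 RPM. Without it, the log2 fold-change of Aqp5 with CS in α7E260A:G was -0.13, against 0.95 with it (edgeR). Akap5 in the male α7E260A:G control library, at 8.29 RPM, lay far from the other 3, which were between 3.20 and 3.99 RPM; it rests on 68 counts. Both were found by Dixon's test of the gap to the nearest library, and 36 groups of 4 libraries were examined, of which chance would mark about 1 in 20.

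Clic5 was lower after CS in both α7G pairs and higher in both α7E260A:G pairs. The difference between the responses was 1.07 on the log2 scale in the fit of all genes, and it did not pass the test (SE 0.66, adjusted p = 1.0, edgeR).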

How the results depend on the processing

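By genotype, edgeR called 6 genes and 0 of the 5 alveolar type 1 genes tested. All genes called numbered 427 with DESeq2, 477 with the CDS length offset, 13 with filterByExpr, 69 without a filter, 40 with sex as a replicate block and 675 with the replicate block and the CDS length offset. Of the 8 genes, DESeq2 called 3 (Aqp5, Pdpn, Emp2), the offset 2 (Aqp5, Pdpn), and the replicate block with the offset 3 (Ager, Aqp5, Pdpn); the other settings called none. Leaving out 1 library gave 1 to 275 genes: 275 without the female and 121 without the male α7E260A:G control, 2 without either α7G control and 1 without either α7G CS library, with 0 of the 8 genes called each time. The causes were not tested. The direction by genotype held in all 78 alternative estimates of the 8 genes. For Rtkn2, Clic5 and Akap5 the only alternative to the fit without a filter was filterByExpr, so their direction was hardly probed.

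With CS over both genotypes, DESeq2 called 39 genes, the fit without a filter 1, the replicate block with the offset 2, and leaving out 1 library 0 to 1 (1 without the female α7E260A:G control). DESeq2 called 27 genes in α7G, 11 in α7E260A:G and 3 for the difference of the responses; in α7E260A:G filterByExpr called 1 and no filter 3. None was among the 8 genes. Of 78 alternative estimates with CS, 7 changed sign: Pdpn to -0.09 with the offset and -0.09 with the block and offset, Emp2 to -0.26 and -0.23, and Ager with libraries left out, over a range of -0.44 to 0.45 (-0.44 without the female α7E260A:G CS, -0.10 without the male α7E260A:G control, -0.02 without the female α7G CS library). The number of genes without overlap by genotype was 4 in RPM, 3 in TMM-scaled RPM (without Aqp5), 3 with the CDS length trend removed (without Emp2) and 5 without the male α7G CS library (with Rtkn2). It was 1 relative to epithelial markers and 0 relative to type 2 markers, scales chosen after seeing the data. The number by CS was 0, and 0 to 1 with a library left out: Hopx without the female α7G control or the male α7E260A:G CS library, Akap5 without the female α7E260A:G control. The log2 ratio of the summed genes was -0.98, -0.64 relative to epithelial and 0.52 relative to type 2 markers.

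Male and female libraries share only a label of sex: deviations from group means of libraries of the same sex correlated across genes by -0.0964 to 0.837, and the pairing changed no call other than those given. The 2 libraries of a group limit every within-genotype test, and Rtkn2, at 7 to 46 counts, is limited by depth.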
